A study of Mus musculus with 4 samples.

Results

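Nodal, its inhibitors Lefty1 and Lefty2, the receptor genes Acvr1b, Acvr2a and Acvr2b, the co-receptor gene Cfc1, the convertase gene Furin and the target gene Skil were followed through retinoic acid treatment of mouse embryonic stem cells. The 9 genes were taken by symbol, for their place in the pathway, from count tables of 23420 genes, with earlier results of these data known. RNA sequencing was done on wild-type E14 cells, a feeder-free mouse embryonic stem cell line grown in serum with leukemia inhibitory factor, which holds the cells in the undifferentiated state. The treated group, with 2 libraries, had 24 h of all-trans retinoic acid (ATRA) at 1 µM. The control group, also with 2 libraries, was taken at 0 h. Retinoic acid receptors bind ATRA and act on DNA as partners of the retinoid X receptors named in the series title. Because the control is a 0 h sample, the effects of ATRA and of 24 h in culture cannot be told apart, and it is not stated whether the 0 h cells received the dimethyl sulfoxide vehicle. The labels do not say whether the replicates are separate cultures, so every p-value below measures spread among 4 libraries that may be partly or wholly technical. All libraries are of a single cell line.

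Nodal is a secreted ligand of the TGF-beta family that induces mesendoderm and patterns the early embryo, and cultured embryonic stem cells express it. Its precursor is cleaved by convertases such as furin, and the mature ligand binds type II activin receptors and the type I receptor ALK4 together with an EGF-CFC co-receptor. The receptors phosphorylate SMAD2 and SMAD3, which enter the nucleus with SMAD4 and, through partners such as FOXH1, switch on genes that include Nodal itself and its secreted inhibitors, the Lefty genes. SKIL (SnoN) is a nuclear brake on SMAD activity that the pathway both degrades and induces.

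Read counts in genes totalled 13337972 and 11086233 in ATRA replicates 1 and 2, and 31005634 and 21484812 in control replicates 1 and 2, so the ATRA libraries were the shallower. Levels are given as CPM, which are counts scaled to library size with edgeR's TMM factors. A count of 3 stands for 0.212 and 0.309 CPM in the ATRA libraries and 0.0940 and 0.134 CPM in the control libraries. Embryonic stem cell markers were present in every library (10 of 10, with the highest CPM for Dppa5a in both ATRA libraries and for Pou5f1 in both control libraries), with summed levels of 1690 and 1368 CPM in ATRA libraries and 3634 and 3666 CPM in control libraries. All 8 retinoic acid response markers rose both without and with the correction described next, Stra8 having the highest CPM in both ATRA libraries, with list sums of 1069 and 1217 CPM in ATRA libraries against 33.5 and 39.3 CPM in control libraries. The ATRA replicates differed from each other along the GC content of transcripts. Replicate 2 over replicate 1 of ATRA had a median log2 ratio of 0.85 among the genes of the lowest GC decile and −1.31 in the highest, against −0.013 and −0.31 for control replicate 2 over control replicate 1. The group difference also went with GC content (Spearman rho −0.745 over genes, a description, since genes are not independent). Values below are therefore given both without and with a correction. It fits and removes the GC trend of each library relative to the mean of the libraries. That correction also removes any real GC-related difference between libraries, and it leaves a GC trend shared by all of them.

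Without the GC correction 0 of the 8 tested genes of the group passed the test after 24 h of ATRA, although type II receptor genes, Furin and Skil differed by more than the gap between replicates. Acvr2a and Skil were higher by 2.89-fold and 2.40-fold in ATRA libraries, while Acvr2b and Furin stood at 0.323 and 0.232 times their control levels. With the correction, 2 of the 8 genes rose, Lefty1 by 4.38-fold and Acvr2a by 1.43-fold, and 0 fell. Over all 14256 genes tested, 1.13% passed without the correction and 16.2% with it (edgeR's quasi-likelihood test, Benjamini-Hochberg adjusted p under 0.05, n = 2 against 2). At an unadjusted p under 0.05, 4 of the 8 genes passed without the correction, against 41.7% of all genes, and 6 with it, against 38.2%. DESeq2's Wald test, also without correction, called 4 of them (Acvr2a and Skil higher, Acvr2b and Furin lower), against 30.3% of all genes it tested. With ATRA replicate 1, ATRA replicate 2, control replicate 1 or control replicate 2 left out, uncorrected fits called 7, 5, 0 and 0 of the 9 genes, against 69%, 48.9%, 0.874% and 4.59% of all genes. Corrected fits then called 5, 5, 0 and 0 of the 9 genes, against 44.9%, 33.1%, 0.245% and 0.173% of all genes. In such fits a lone library is assumed to vary like the other group. Libraries of the groups did not overlap in 7 of the 8 genes, 3 higher and 4 lower with ATRA. Of all genes, 40% were higher and 41.5% lower without overlap, so a gap between the groups was common in these libraries. The median log2 fold change of the 8 genes was −0.032 without the correction and 0.30 with it, against −0.015 and 0.015 for all genes. Fewer cells expressing a gene and less RNA per cell cannot be told apart in such bulk samples.

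**Figure D1:**
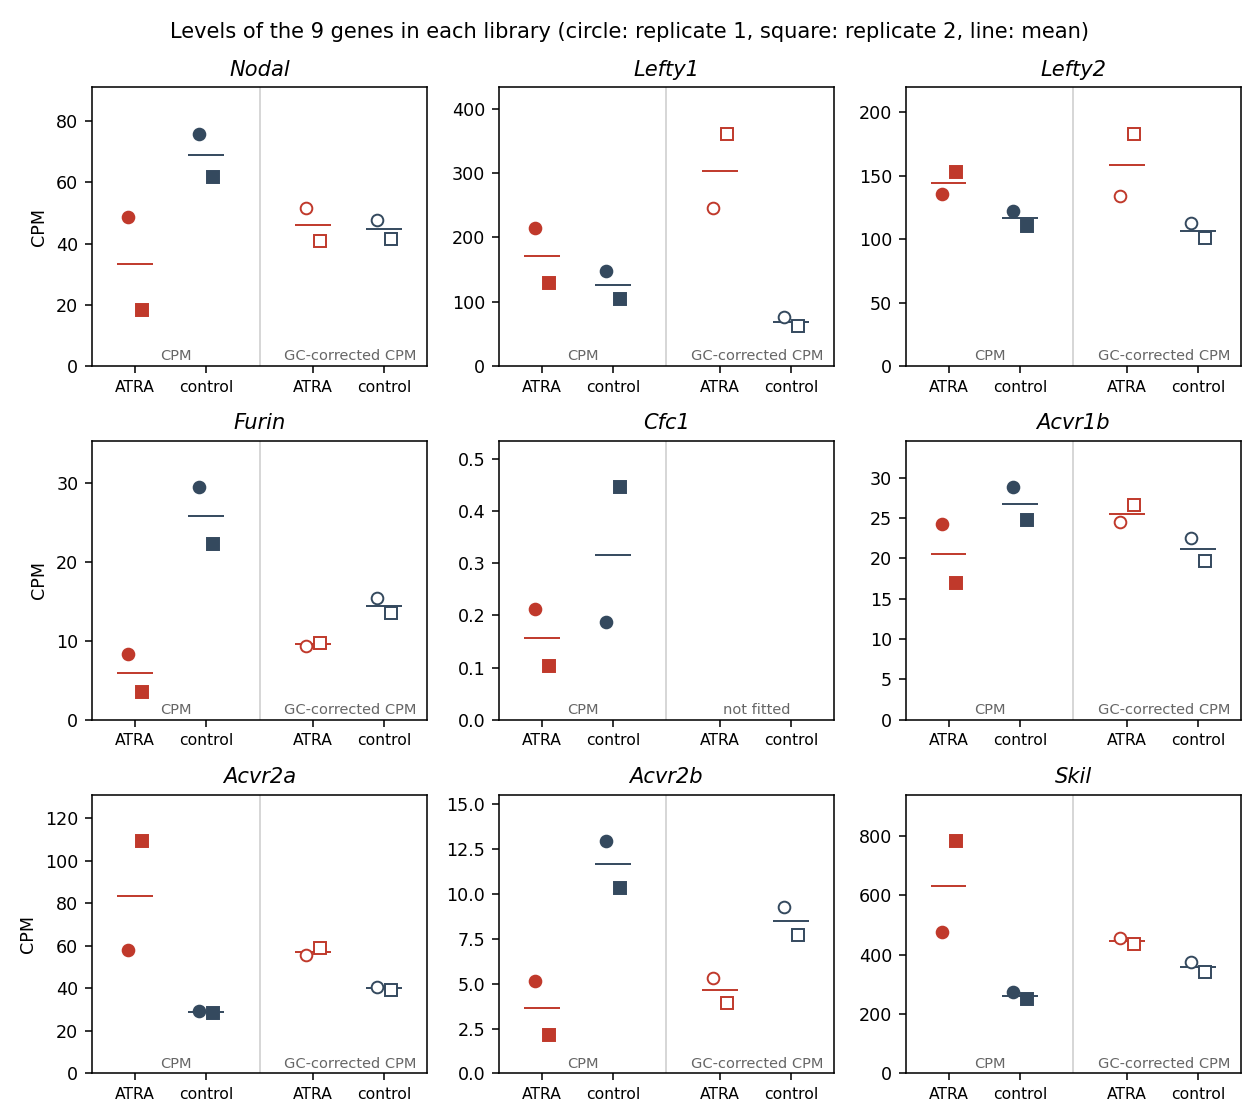
Level of each of the 9 genes in every library, in CPM, without correction (filled symbols) and after GC correction (open symbols). Circles are replicate 1, squares replicate 2 and lines group means. The ATRA libraries of Lefty1 lie at 215 and 129 CPM without correction and at 246 and 361 CPM after it, while its control libraries lie at 148 and 104 CPM and at 75.8 and 62.5 CPM.

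Nodal, on chromosome 10 from 61417972 to 61425338 on the plus strand (GENCODE M21, GRCm38), had 48.6 and 18.4 CPM in the ATRA libraries, against 75.9 and 61.7 CPM in the control libraries. Both ATRA libraries were below both controls, and the ATRA replicates lay further apart from each other than the controls did. The means were 33.5 ± 21.4 CPM with ATRA and 68.8 ± 10.1 CPM in controls (SD, n = 2 each). The log2 fold change was −1.03 ± 0.48 (SE) and did not pass (adjusted p = 0.152, edgeR). Nodal transcripts have a GC content of 55.9%, and the median log2 fold change of all genes in that GC decile was −1.31. Nodal lies at the lower edge of that decile, and the next decile down had a median of −0.90. After the correction Nodal had 51.6 and 40.7 CPM with ATRA and 47.6 and 41.7 CPM in controls. The groups then overlapped, with a log2 fold change of 0.054 ± 0.16 (adjusted p = 0.832, edgeR). The size of the uncorrected value hung on single libraries, while it stayed negative with any of them left out. Without ATRA replicate 1 it was −1.92, and without ATRA replicate 2 it was −0.49. Without control replicate 1 or control replicate 2 it was −0.89 or −1.18.

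The inhibitor genes Lefty1 and Lefty2 are neighbours on chromosome 1, on the plus strand, Lefty2 from 180893108 to 180899103 and Lefty1 from 180935022 to 180938400. Lefty1 had 215 and 129 CPM in the ATRA libraries and 148 and 104 CPM in the control libraries. Those ranges overlap, since ATRA replicate 2 was below control replicate 1. Its log2 fold change was 0.45 ± 0.36 (adjusted p = 0.351, edgeR). Lefty1 is among the GC-rich genes, at 58.6%. The genes of its decile had a median log2 fold change of −1.72, and 96.6% of them had a lower value than Lefty1. After the correction Lefty1 had 246 and 361 CPM with ATRA, against 75.8 and 62.5 CPM in controls, with means of 303 ± 81.7 CPM and 69.2 ± 9.46 CPM (SD, n = 2 each). The groups were then clearly apart, and Lefty1 rose by 2.13 ± 0.22 on the log2 scale (adjusted p = 0.0111, edgeR). The corrected fold change stayed between 1.83 and 2.39 with any single library left out. The call was lost without control replicate 1 (adjusted p = 0.0767, edgeR) and without control replicate 2 (adjusted p = 0.106, edgeR).

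Lefty2, with a mid-range GC content of 51.5%, was less affected by the correction. It had 136 and 153 CPM in the ATRA libraries, against 123 and 110 CPM in the control libraries. The ATRA libraries were above both controls by a small margin. Its log2 fold change was 0.31 ± 0.26 without the correction (adjusted p = 0.367, edgeR) and 0.57 ± 0.17 with it (adjusted p = 0.0758, edgeR). The corrected levels were 134 and 183 CPM with ATRA and 112 and 101 CPM in controls. Lefty2 stayed between 0.23 and 0.38 uncorrected and between 0.34 and 0.79 corrected, on the log2 scale, with any single library left out. Whether it passed in such fits depended on the library left out. Transcripts of the Lefty genes were 87.1% identical over 1382 aligned bases, and 281 of the 1571 windows of 50 bases in Lefty1 (17.9%) also occur in Lefty2. Reads from such stretches may have been split between the genes or discarded, so the sum was read as well. Lefty1 and Lefty2 together came to 350.4 and 282 CPM with ATRA and to 270.2 and 214 CPM in controls, or after the correction to 379.8 and 544 CPM with ATRA and 188 and 163 CPM in controls. The ATRA sums were above the control sums on both scales.

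Furin encodes a proprotein convertase that cleaves the Nodal precursor among many substrates. It lies on chromosome 7 from 80388585 to 80405436 on the minus strand, and the antisense gene Gm44851 overlaps its exons. Furin had 8.27 and 3.51 CPM in the ATRA libraries, against 29.4 and 22.3 CPM in the control libraries. Both ATRA libraries were far below both controls, and the log2 fold change was −2.11 ± 0.48 (adjusted p = 0.0662, edgeR). Its GC content, 58.3%, puts it in the same decile as Lefty1. After the correction Furin had 9.39 and 9.66 CPM with ATRA and 15.4 and 13.6 CPM in controls, a log2 fold change of −0.60 ± 0.17 (adjusted p = 0.0696, edgeR). The ATRA replicates, apart without the correction, then lay close together and still below both controls. Furin stayed between −2.91 and −1.64 uncorrected and between −0.70 and −0.52 corrected, on the log2 scale, with any single library left out. Whether it passed in such fits depended on the library left out.

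Cfc1 encodes Cryptic, an EGF-CFC co-receptor used in left-right patterning. It lies on chromosome 1 from 34535648 to 34544313 on the plus strand and overlaps exons of Prss40 on the other strand. Cfc1 was barely detected, with 3 and 1 counts in the ATRA libraries and 6 and 10 counts in the control libraries, and it was left out of the test. Set against library sizes, its 4 ATRA counts to 16 control counts gave a ratio of 0.570 with an exact 95% interval from 0.139 to 1.77, which covers counting error only. A difference was not detectable at this depth. The related co-receptor gene Tdgf1 (Cripto) was far more abundant per kilobase of exon, at 65.4 and 101 RPKM in ATRA libraries and 163 and 161 RPKM in control libraries, where Cfc1 had 0.204 and 0.0992 RPKM with ATRA and 0.181 and 0.428 RPKM in controls.

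Acvr1b encodes ALK4, the type I receptor for Nodal and activin, and lies on chromosome 15 from 101174067 to 101213684 on the plus strand. It had 24.2 and 16.9 CPM with ATRA, against 28.8 and 24.7 CPM in controls. Both ATRA libraries were below both controls, and the upper ATRA value nearly met the lower control. The log2 fold change was −0.38 ± 0.33 (adjusted p = 0.391, edgeR), and 0.27 ± 0.16 after the correction (adjusted p = 0.256, edgeR), where the levels were 24.5 and 26.6 CPM with ATRA and 22.5 and 19.8 CPM in controls. The direction thus turned with the correction, and neither value passed. Depending on the library left out, the uncorrected value ran from −0.68 to −0.14 and the corrected value from 0.17 to 0.36.

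The type II receptor genes Acvr2a and Acvr2b, whose products bind activin and Nodal and are shared with some BMPs, had fold changes of opposite sign. Acvr2a lies on chromosome 2 from 48814109 to 48903269 on the plus strand, with exons that overlap Orc4 on the other strand. Acvr2a had 57.9 and 109 CPM in the ATRA libraries, against 29.4 and 28.2 CPM in the control libraries. Both ATRA libraries were well above both controls, which lay close together, and ATRA replicate 2 was the higher. The log2 fold change was 1.53 ± 0.38 (adjusted p = 0.0684, edgeR). Acvr2a transcripts are AT-rich, with 39.9% GC, and genes of that decile had a median log2 fold change of 1.03. After the correction Acvr2a had 55.6 and 58.8 CPM with ATRA and 40.6 and 39.3 CPM in controls. The replicates then lay close together, the groups were apart, and Acvr2a rose by 0.52 ± 0.12 on the log2 scale (adjusted p = 0.0423, edgeR). That call was lost without control replicate 1 (adjusted p = 0.321, edgeR) or control replicate 2 (adjusted p = 0.333, edgeR), with fold changes of 0.54 and 0.49 on the log2 scale.

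Acvr2b lies on chromosome 9 from 119402118 to 119434995 on the plus strand. It had 5.16 and 2.17 CPM in the ATRA libraries, from 73 and 21 counts, against 12.9 and 10.3 CPM in the control libraries, from 412 and 232 counts. The ATRA libraries were well below the controls. The log2 fold change was −1.63 ± 0.48 (adjusted p = 0.0784, edgeR). At a GC content of 54.4% the decile median was −0.90, and 13.9% of the genes in that decile had a lower value. After the correction Acvr2b had 5.30 and 3.93 CPM with ATRA and 9.26 and 7.70 CPM in controls, a log2 fold change of −0.85 ± 0.25 (adjusted p = 0.0724, edgeR). Neither value passed, and both placed every ATRA library below every control. The Acvr2a and Acvr2b transcripts share no window of 50 bases and were 64.8% identical where aligned, so reads are unlikely to be confused between them. Acvr2b stayed between −2.45 and −1.17 uncorrected and between −1.12 and −0.69 corrected, on the log2 scale, with any single library left out. Whether it passed in such fits depended on the library left out.

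The stretches just before the starts of Nodal and of the type II receptor genes are shown because these genes differ in how rich in CpG dinucleotides they begin. Sequences are RefSeq's for GRCm38.p6, plus strand, 5′ to 3′, with each CpG in capitals, at chr10:61417722-61417971 for Nodal, chr2:48813859-48814108 for Acvr2a and chr9:119401928-119402117 for Acvr2b (190 bases there, so that no annotated transcript is included).
Nodal: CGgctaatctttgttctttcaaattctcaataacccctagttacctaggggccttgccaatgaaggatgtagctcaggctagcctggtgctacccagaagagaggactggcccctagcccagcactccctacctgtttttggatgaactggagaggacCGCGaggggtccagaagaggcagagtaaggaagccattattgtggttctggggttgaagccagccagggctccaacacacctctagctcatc
Acvr2a: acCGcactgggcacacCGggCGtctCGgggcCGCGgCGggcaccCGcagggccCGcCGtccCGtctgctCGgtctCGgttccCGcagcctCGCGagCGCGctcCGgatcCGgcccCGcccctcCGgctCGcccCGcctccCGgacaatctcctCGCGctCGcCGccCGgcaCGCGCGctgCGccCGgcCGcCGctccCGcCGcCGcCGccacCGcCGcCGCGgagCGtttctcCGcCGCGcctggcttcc
Acvr2b: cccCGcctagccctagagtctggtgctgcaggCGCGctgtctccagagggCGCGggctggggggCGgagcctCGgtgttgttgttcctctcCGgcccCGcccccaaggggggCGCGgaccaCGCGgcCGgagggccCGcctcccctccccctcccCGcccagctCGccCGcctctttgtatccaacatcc
Nodal has 3 CpG dinucleotides in 250 bases, and the median over 32851 RefSeq windows of that length was 6. Acvr2a has 49, and 0.146% of the windows have at least as many. Acvr2b has 24 in the 250 bases before its RefSeq start and 18 in the stretch printed. Of the other genes, Acvr1b has 42, Cfc1 has 2, and Furin has 6 and 40 before its alternative starts. Windows were on hand for 6 of the 9 genes, 7 in all, and those for Lefty1, Lefty2 and Skil were not analysed here. A search on both strands found AATCCACA, the letters FOXH1 prefers, in 0 of the 7 windows and 0.718% of all windows. It found the SMAD palindrome GTCTAGAC in 0 of 7 and 0.167% of all. The direct repeat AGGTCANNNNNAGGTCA, a retinoic acid response element, was in 0 of 7 and 0.00913% of all. A single AGGTCA, which overlaps that repeat, was in 0 of 7 and 14% of all.

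Skil lies on chromosome 3 from 31095058 to 31122577 on the plus strand. It had 477 and 781 CPM in the ATRA libraries, against 275 and 249 CPM in the control libraries, which made it the gene with the highest CPM of the group. ATRA libraries were far above controls, with replicate 2 the higher. The log2 fold change was 1.26 ± 0.33 (adjusted p = 0.0716, edgeR). Its transcripts have 41.0% GC, and it shares the lowest decile with Acvr2a. After the correction Skil had 457 and 437 CPM with ATRA and 375 and 339.9 CPM in controls, a log2 fold change of 0.32 ± 0.10 (adjusted p = 0.0750, edgeR). The groups remained apart by a smaller margin. With any single library left out, the log2 fold change of Skil stayed between 0.88 and 1.56 uncorrected and between 0.25 and 0.39 corrected. Whether Skil passed in such fits depended on the library left out.

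**Figure D2:**
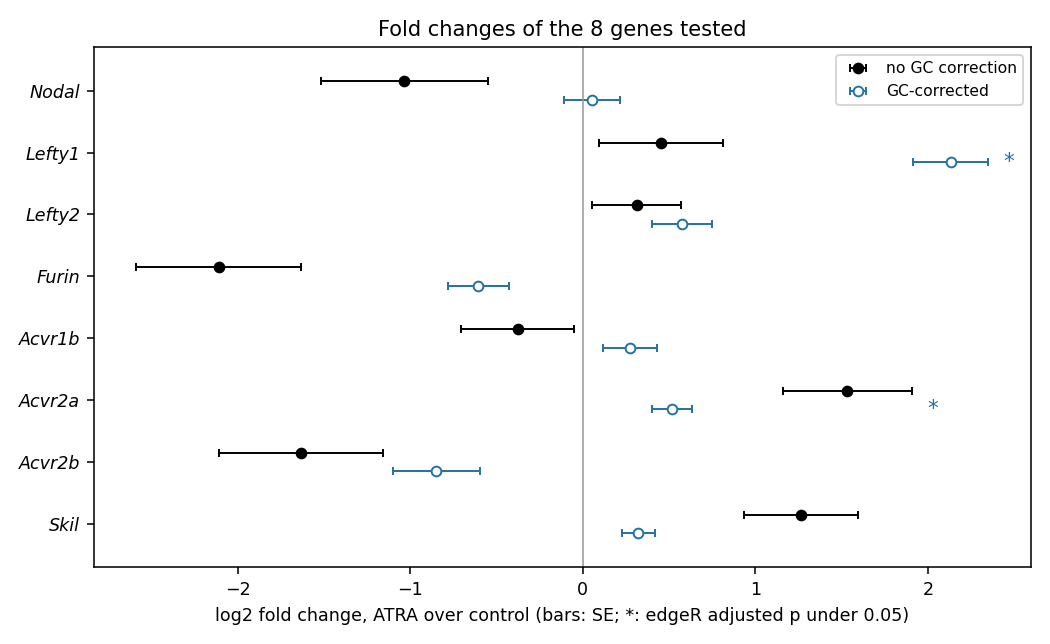
Log2 fold change, ATRA over control, of the 8 genes tested, without (filled black) and with (open blue) the GC correction, with bars of 1 SE. Asterisks mark an edgeR adjusted p under 0.05, which Lefty1 (2.13) and Acvr2a (0.52) reached with the correction. Nodal and Acvr1b changed sign between the fits.

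The size of the uncorrected fold change followed GC content in most of these genes. Acvr2a and Skil, in the decile with the lowest GC content, had positive values, and Nodal, Acvr2b and Furin, from the GC-rich end, had negative ones. The same genes also differed between the ATRA replicates in the direction of the group difference. The log2 ratio of replicate 2 to replicate 1 within ATRA was 0.91 for Acvr2a and 0.71 for Skil, and −1.40 for Nodal, −1.21 for Acvr2b and −1.21 for Furin. Between the controls, the log2 ratios of replicate 2 to replicate 1 of these 5 genes lay between −0.40 and −0.058. Lefty1 stood apart from that order, with a positive group difference at 58.6% GC and a replicate ratio of −0.73. The part of GC content in these fold changes was not tested beyond the correction shown. Without overlap on the corrected scale, 5 of the 8 genes were higher (35.5% of all genes) and 2 lower (34.8% of all genes) with ATRA.

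**Figure D3:**
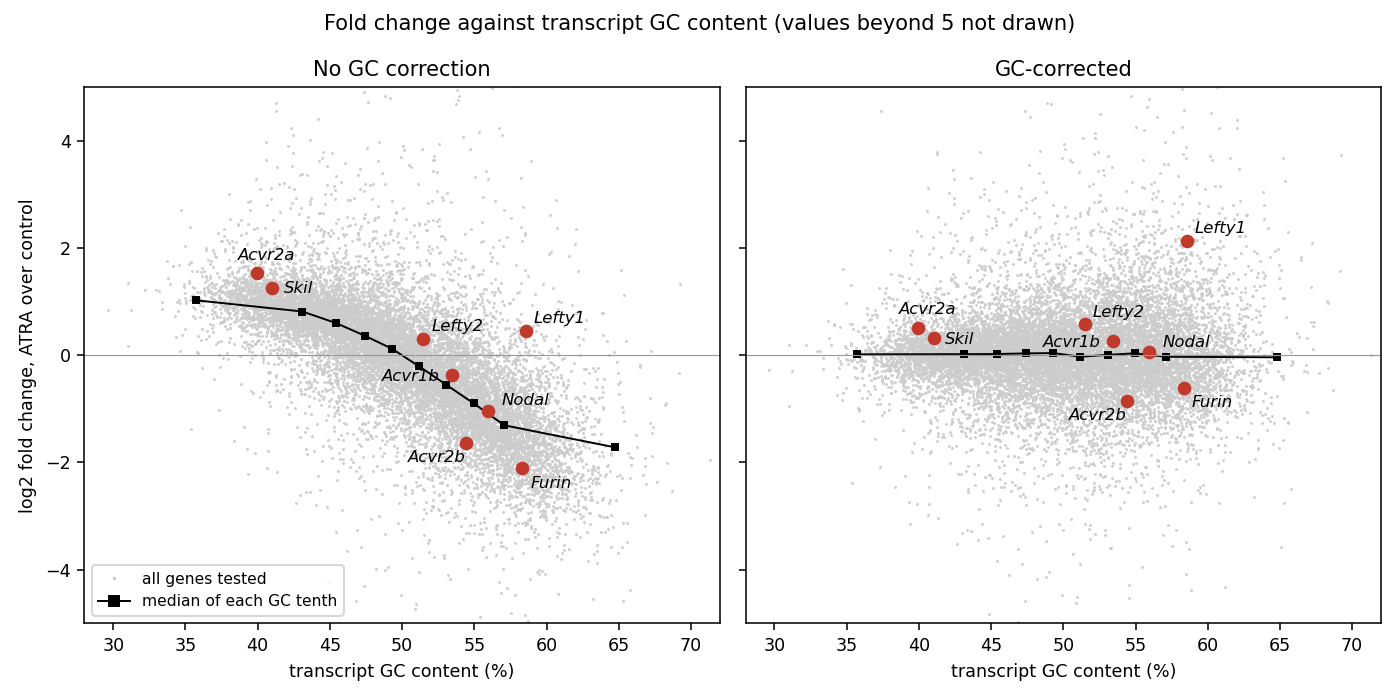
Log2 fold change, ATRA over control, against transcript GC content in percent, for all genes tested (grey points) and the 8 genes (red), without (left) and with (right) the GC correction. Black squares are medians of each GC decile, drawn at the middle of its GC range, and run from 1.03 to −1.72 on the left. Lefty1, at 0.45 and 2.13, lies above the median of its decile in both panels.

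Between genes, levels were compared as RPKM, CPM per kilobase of exon. In ATRA libraries the order of mean levels was Lefty1 (97.7 ± 34.4), Skil (64.9 ± 22.2), Lefty2 (55.3 ± 4.64), Nodal (16.0 ± 10.2), Acvr2a (14.7 ± 6.37), Acvr1b (4.66 ± 1.17), Acvr2b (0.933 ± 0.539), Furin (0.642 ± 0.367) and Cfc1 (0.152 ± 0.0741 RPKM, SD, n = 2 each). In control libraries it was Lefty1 (71.4 ± 17.8), Lefty2 (44.6 ± 3.34), Nodal (32.8 ± 4.80), Skil (27.0 ± 1.87), Acvr1b (6.06 ± 0.654), Acvr2a (5.07 ± 0.145), Acvr2b (2.96 ± 0.465), Furin (2.82 ± 0.549) and Cfc1 (0.305 ± 0.175 RPKM). Ranges of the 2 libraries overlapped between some neighbours in that uncorrected order: Skil with Lefty1 and with Lefty2, and Nodal with Acvr2a, in ATRA libraries, and Acvr2b with Furin in both groups. The length used mattered for Furin, whose control mean was 5.96 ± 1.16 RPKM by its longest coding transcript, close to Acvr1b, and for Skil, whose control mean was then 39.0 ± 2.70 RPKM, above Nodal. After the GC correction the ATRA order was Lefty1 (173 ± 46.5), Lefty2 (60.8 ± 13.2), Skil (46.1 ± 1.51), Nodal (22.0 ± 3.68), Acvr2a (10.1 ± 0.40), Acvr1b (5.78 ± 0.336), Acvr2b (1.18 ± 0.248) and Furin (1.04 ± 0.0204 RPKM). The corrected control order was Lefty2 (40.8 ± 3.18), Lefty1 (39.3 ± 5.38), Skil (36.9 ± 2.56), Nodal (21.3 ± 2.00), Acvr2a (7.03 ± 0.166), Acvr1b (4.79 ± 0.447), Acvr2b (2.16 ± 0.281) and Furin (1.58 ± 0.139 RPKM). Corrected ranges overlapped between Acvr2b and Furin in ATRA libraries, and among Lefty2, Lefty1 and Skil in control libraries. Both inhibitors were thus above the ligand in both groups on both scales. Acvr2a was above Acvr1b in both groups after the correction, while without it Acvr2a was the higher with ATRA and Acvr1b the higher in controls. A GC trend shared by the libraries stays in the corrected levels. Orders between genes of different GC content may therefore carry it on both scales.

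**Figure D4:**
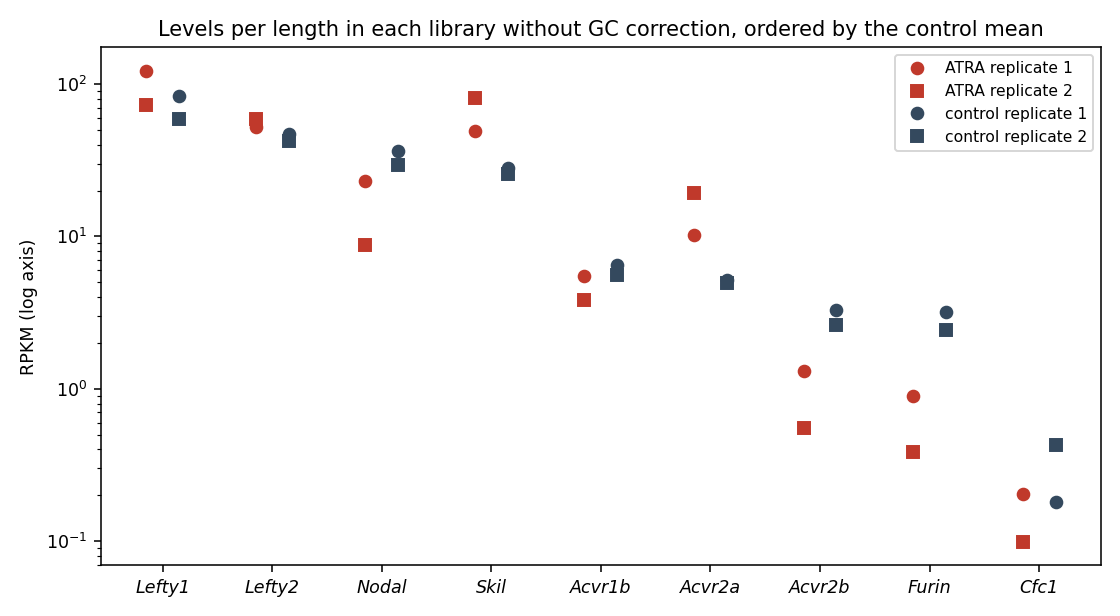
Level per length (RPKM, log axis) of the 9 genes in each library without the GC correction, ordered by the control mean, with ATRA in red and control in blue, circles for replicate 1 and squares for replicate 2. On this uncorrected scale Lefty1 had the highest mean in both groups, and Cfc1 lay under 0.5 RPKM in all 4 libraries.

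Ratios within a library do not depend on its depth, although they do depend on GC content, after the correction too where the libraries share the trend. Lefty1 over Nodal, in RPKM, was 5.26 and 8.37 in the ATRA libraries, against 2.32 and 2.00 in the control libraries, and after the correction 5.67 and 10.6 with ATRA, against 1.90 and 1.79 in controls. ATRA libraries were above controls on both scales. Lefty2 over Nodal was 2.25 and 6.69 with ATRA and 1.30 and 1.43 in controls, and after the correction 2.09 and 3.61 with ATRA and 1.90 and 1.94 in controls, where the lower ATRA value nearly met the controls. Lefty1 over Lefty2 overlapped between the groups without the correction, at 2.34 and 1.25 with ATRA and 1.79 and 1.40 in controls. After it, that ratio was 2.72 and 2.93 with ATRA and 1.00 and 0.922 in controls. Acvr2a over Acvr2b was 7.75 and 34.8 with ATRA, against 1.57 and 1.89 in controls, or 7.24 and 10.4 with ATRA and 3.03 and 3.53 in controls after the correction. The balance between the type II receptor transcripts was therefore on the Acvr2a side in all 4 libraries and more so with ATRA on both scales. With 2 libraries a group, an exact permutation test could not go below p = 0.333, and none was run on these ratios.

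Among 46 other genes of the pathway, 38 had enough counts to be tested. Without the correction 0 rose and 2 fell, against 0.723% and 0.407% of all genes. With it 3 rose and 8 fell, against 8.53% and 7.7% of all genes. Their median log2 fold change was −0.53 without the correction and 0.13 with it. The genes that fell in both fits were from the list of pathway targets in embryonic cells. Whether Nodal signalling had a part in these falls was not tested. The T-box gene T had 8.06 and 11.9 CPM with ATRA, against 147 and 122 CPM in controls, and fell by 3.76 ± 0.34 on the log2 scale (adjusted p = 0.0219, edgeR), with a corrected value of −3.33. Fgf8, a growth factor gene, had 0.778 and 0.206 CPM with ATRA, from 11 and 2 counts, against 7.27 and 8.15 CPM in controls. Its level in ATRA replicate 2 was below that of 3 counts, 0.309 CPM. Fgf8 fell by 3.84 ± 0.55 on the log2 scale (adjusted p = 0.0468, edgeR), with a corrected value of −1.99. The call of Fgf8 was lost when only genes with at least 5 CPM in 2 libraries were tested (adjusted p = 0.0615, edgeR) and with edgeR's older quasi-likelihood method (adjusted p = 0.0643, edgeR). Depending on the library left out, the log2 fold change of Fgf8 ran from −5.19 to −3.28 uncorrected and from −2.345 to −1.69 corrected. The corrected call was lost in most such fits.

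Of the other ligands, 3 of 7 were tested and 0 passed without the correction. Gdf3, a co-ligand of Nodal with the highest CPM of them in every library, had 79.5 and 56.1 CPM with ATRA, against 120 and 127 CPM in controls. Its log2 fold change was −0.87 ± 0.29 (adjusted p = 0.0900, edgeR), and it fell by 0.92 ± 0.18 after the correction (adjusted p = 0.0358, edgeR). The activin subunit genes were low. Without the correction Inhba, which was not tested, had 0.0774 and 0 RPKM with ATRA and 0.132 and 0.0767 RPKM in controls. Inhbb had 0.565 and 0.509 RPKM with ATRA and 1.38 and 1.15 RPKM in controls, also uncorrected. The direction of Inhbb turned with the correction, from −1.23 to 0.70 on the log2 scale, and neither value passed (edgeR adjusted p of 0.0798 and 0.276). Of the other receptors, co-receptors and convertases, 8 of 9 were tested, 0 passed without the correction and 1 fell with it. That was Tdgf1, the Nodal co-receptor and also a stem cell marker, with a log2 fold change of −0.96 ± 0.31 (adjusted p = 0.0856, edgeR), or −1.56 ± 0.10 after the correction (adjusted p = 0.00464, edgeR). Its corrected levels were 165 and 185 CPM with ATRA and 524 and 507 CPM in controls, with the groups far apart.

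Of the other inhibitors, 13 of 14 were tested and 0 passed without the correction, while 2 rose and 2 fell with it. The homeobox corepressor gene Tgif1, with the highest CPM averaged over the 4 libraries though not within ATRA, had 136 and 120 CPM with ATRA, against 190 and 215 CPM in controls. It fell by 0.73 ± 0.12 on the log2 scale after the correction (edgeR adjusted p = 0.0243, against 0.112 uncorrected). The following genes were chosen after their values were seen. Fst, which encodes the activin-binding protein follistatin, had 9.68 and 12.3 CPM with ATRA, against 42.5 and 44.9 CPM in controls, which is 0.2505 times the control level in the fit (adjusted p = 0.0522, edgeR), and fell by 2.41 ± 0.14 after the correction (adjusted p = 0.00341, edgeR). Ski, a SMAD corepressor gene and the relative of Skil, had 184 and 196 CPM with ATRA, against 112 and 88.2 CPM in controls. Corrected, it had 194 and 419 CPM with ATRA and 72.35 and 60.72 CPM in controls, so the correction moved its ATRA replicates apart. Its log2 fold change was 0.92 without the correction (adjusted p = 0.0783, edgeR) and 2.20 with it (adjusted p = 0.0269, edgeR), or 1.55 with it when ATRA replicate 2 was left out. Smurf2, a ubiquitin ligase gene of the pathway, rose by 0.50 on the log2 scale after the correction (adjusted p = 0.0404, edgeR). Ski and Skil were thus higher with ATRA in every library on both scales, and Fst was lower.

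All 6 intracellular transducers were tested, 0 passed without the correction and 1 rose with it. Trim33, a regulator of SMAD4 with the highest CPM of them in every library, was at 0.69 ± 0.32 without the correction and −0.062 ± 0.096 with it, on the log2 scale (edgeR adjusted p of 0.152 and 0.663). Chosen after their values were seen, Smad3 rose by 1.01 ± 0.15 after the correction (edgeR adjusted p = 0.0201, against 0.311 at 0.43 uncorrected), and Smad2 was at 1.04 and 0.42 in the fits without and with it (edgeR adjusted p of 0.0693 and 0.0608). Foxh1, the partner of SMADs at Nodal targets, was at −1.49 uncorrected (adjusted p = 0.0798, edgeR) and at 0.14 corrected (adjusted p = 0.483, edgeR), and so turned with the correction as Nodal did. Of the other targets in embryonic cells, 8 of 10 were tested, and 2 fell without the correction and 4 with it. Mixl1 (−1.93) and Fgf5 (−2.46) were the further falls on the corrected log2 scale (edgeR adjusted p of 0.0283 and 0.0114). The target list had medians of −1.52 and −1.20 on the log2 scale without and with the correction. In each fit 3 of its 8 tested genes were above 0. The Lefty genes, also Nodal targets, were likewise above 0, at or above 0.31 in both fits, and of these values only the corrected one of Lefty1 passed. With ATRA replicate 1 left out, 28 of 39 wider pathway genes tested passed without the correction, against 69% of all genes, and 23 with it, against 44.9%. With ATRA replicate 2 left out, 25 of 40 passed without the correction, against 48.9% of all genes, and 16 with it, against 33.1%. With control replicate 1 or 2 left out, 2 passed in each fit without the correction, against 0.874% and 4.59% of all genes, and 0 with it, against 0.245% and 0.173%.

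**Figure D5:**
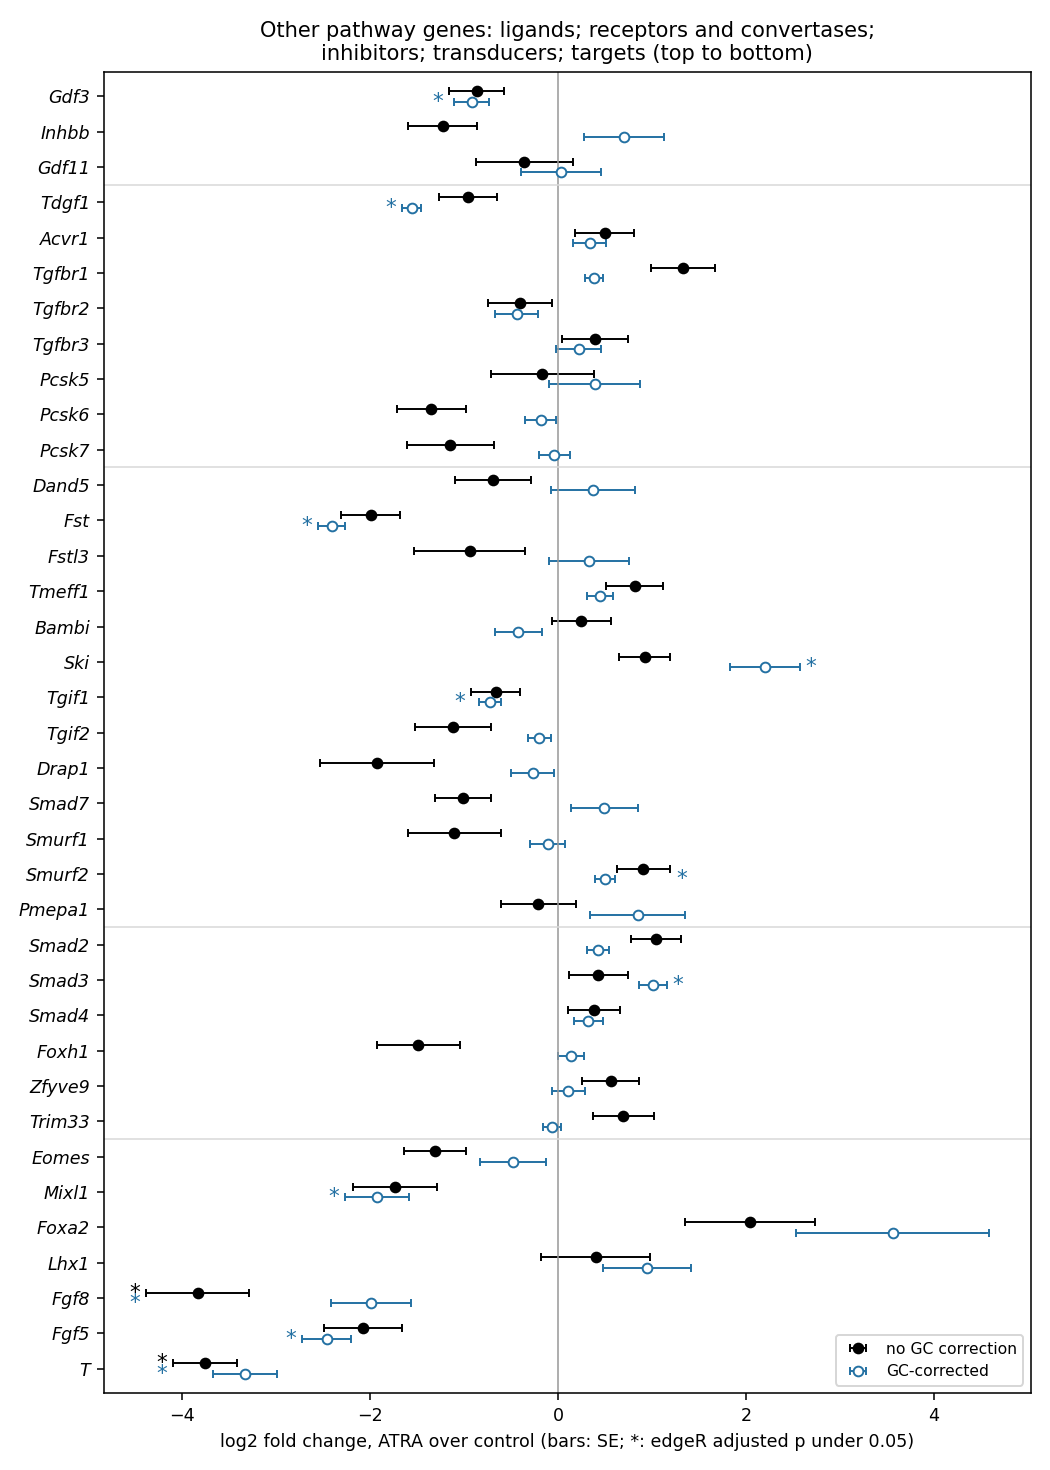
Log2 fold change, ATRA over control, of the other pathway genes tested and reported here, without (filled black) and with (open blue) the GC correction, with bars of 1 SE. Grey lines separate, from the top, ligands, receptors with co-receptors and convertases, inhibitors, transducers and targets. Asterisks mark an edgeR adjusted p under 0.05, reached in both fits by T (−3.76 and −3.33) and Fgf8 (−3.84 and −1.99).

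Marker lists of other cells that Nodal signalling or serum culture can yield were read in the same libraries. Primitive endoderm markers had counts in every library for 9 of 9 genes, mostly Sparc, with sums of 505 and 427 CPM with ATRA and 714 and 685 CPM in controls. Of the 8 tested, 0 passed without the correction, and 5 rose and 1 fell with it, against 8.53% and 7.7% of all genes. Lefty1 and Acvr2a also rose in that fit. The uncorrected sum of the list, mostly Sparc, was lower with ATRA. Taken gene by gene, 5 of the 8 tested had an uncorrected log2 fold change above 0, with a list median of 0.90, against −0.015 for all genes. Fibroblast markers had counts for 8 of 8 genes, with Acta2 the highest in CPM on average over the 4 libraries and Col1a2 the highest in ATRA replicate 2, and sums of 225 and 147 CPM with ATRA and 370.5 and 333 CPM in controls, and 1 of 7 tested rose with the correction. None of these markers was at 0 in every library. Among stem cell markers Zfp42 and Esrrb fell without the correction, and 7 of 10 fell with it. The part of cell composition in the values of Nodal, the Lefty genes and the receptors was not tested.

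The genes whose uncorrected log2 CPM profiles over the 4 libraries were most like that of Nodal were Entpd6, Slc27a4 and Lztr1, at distances of 0.0556, 0.0748 and 0.0803 on the log2 scale between profiles centred on their means. Their GC contents were 55.7%, 56.8% and 54.7%, near the 55.9% of Nodal. For Lefty1 the nearest profiles were those of Kirrel, Nxn and Dag1, at larger distances of 0.353, 0.375 and 0.405. Their GC contents were 52.8%, 56.4% and 52.8%, all below the 58.6% of Lefty1. The likeness rests on 4 libraries that also share the GC trend.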

How the data were processed

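RNA was sequenced in 4 libraries, 2 of ATRA-treated and 2 of control cells, grouped by the sample titles. The dose is that of the titles, in µM, although a treatment label of the ATRA samples is written in millimolar. The protocols also describe embryoid body differentiation, but every sample is labelled as stem cells. The authors deposited whole-number read counts per gene symbol for each library, with no normalization. The submitters' processing notes list TopHat2 2.0.7, Cufflinks 2.0.2, HTSeq 0.6.0, Cuffdiff 2.0.2 and build mm10, without roles. Which annotation was counted, and whether by strand, is not given in the sources used here. Reads of a gene and its antisense partner therefore cannot be told apart. Summary lines (5 per library) were left out, of which reads in no gene made up 64.7% and 66.2% in ATRA and 63.4% and 63.9% in control libraries. Divided by its degrees of freedom, chi-square between replicates was 76.9 for ATRA and 9.65 for controls, above sampling noise.

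Counts were fitted with edgeR 4.0.16 in R 4.3.3 (default expression filter by group, TMM factors, robust quasi-likelihood fit and F test, no covariate), with Benjamini-Hochberg adjustment over 14256 genes and a threshold of 0.05. SE was taken from the log2 fold change and the square root of F. RPKM divides CPM by union exon length in GENCODE M21, where 21777 symbols matched directly, 1278 through an older symbol and 365 not at all. For the GC correction, each library's deviation in log2 CPM (prior count 2) was taken from the mean of the libraries in the fit. That deviation was fitted on GC content of the longest coding transcript by robust regression (natural spline, 5 degrees of freedom, MASS 7.3.60.0.1). The fitted trend entered the fit as offsets. A GC value was known for 99.2% of the genes tested, and others were left uncorrected. The correction was known from earlier results of these data to move values. It lowered the biological coefficient of variation of the fit from 28.3% to 15.4%, which follows from how it is built. Alternatives were DESeq2 1.42.0 (size factors in edgeR, and its own Wald test), other count filters, each library left out, the replicate number as a block, and edgeR's older quasi-likelihood method, the last chosen after seeing the data. The scripts were tested on simulated counts. Floors of 3 counts and exact 95% intervals cover counting error only.

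The 9 genes and all other lists were chosen with earlier results of these data known. Of each wider list, the genes named are those that passed without the correction or, where none did, the tested gene with the highest CPM averaged over the 4 libraries. Other named genes, such as Dppa5a and Col1a2, were chosen after their values were seen. Of marker lists, the gene with the highest such average and those that passed without the correction could be named. Likeness is the Euclidean distance of centred log2 CPM profiles, over genes no more than 1 log2 unit less abundant than the gene compared. Among the wider lists, a gene that counts toward the totals and medians is neither named nor plotted, and its own values are not reported here.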

Additional observations from a re-analysis of the deposited data

How the results depend on the processing

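The 8 fold changes kept their direction under every setting without the GC correction, and 21 of 80 such values passed the threshold where the reported value had not. With the correction, Nodal turned to 0.054 (0.060 with the older quasi-likelihood method, 0.044 with a replicate block, and −0.13 to 0.21 with a library left out) and Acvr1b to 0.27 (0.27, 0.27, and 0.17 to 0.36), on the log2 scale. Foxh1 turned to 0.14 (0.14, 0.14, and 0.061 to 0.21) and Trim33 to −0.062 (−0.062, −0.064, and −0.12 to 0.0036) in the same settings. Uncorrected with a library left out, these genes ranged from −1.92 to −0.49, −0.68 to −0.14, −2.23 to −1.01 and 0.30 to 0.99. The causes were not tested.

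Against 161 genes called (103 higher, 58 lower), 0 of the 9 genes and 2 wider pathway genes, the GC correction gave 2313, 2 and 11, and with the older quasi-likelihood method 2378, 2 and 11. That older method alone gave 86, 0 and 1. A minimum of 5 CPM gave 84, 0 and 1, no filter 174, 0 and 3, and DESeq2 size factors 603 (232 higher, 371 lower), 0 and 3. DESeq2's Wald test gave 4282, 4 and 17. With a library left out, counts ranged from 125 to 10289 genes, 0 to 7 and 2 to 28, or with the correction from 25 to 6696, 0 to 5 and 0 to 23. The fits without a control library called none of the 9 genes, with or without the correction.

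With the replicate number as a block, the counts were 4401 genes (1350 higher, 3051 lower), 5 of the 9 (Acvr2a and Skil higher, Nodal, Acvr2b and Furin lower) and 15 wider genes, and with the correction 2634, 1 and 12, where Acvr2a was not called (adjusted p = 0.0674, edgeR). The labels do not say that the numbers pair the samples, and deviations of same-numbered libraries correlated at 0.18 and, corrected, at −0.034 across genes over only 2 pairs, so the numbers were not used as pairs. At the ATRA depths Cfc1 could not be judged, and Acvr2b rested on 73 and 21 counts and Furin on 117 and 34 counts.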
